A study of Mus musculus with 35 samples.

Results

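The genes described here encode lysosomal enzymes and membrane proteins. A list of 35 symbols was matched to the deposited value table, and for each symbol the probe set that averaged highest across the 35 arrays was used. Of these, 34 genes had a probe set with that single symbol, out of 18193 genes with a value, and Cd63 is not analysed here. The choice of probe set used no difference between cell types. Of the 34 genes, 23 had several probe sets to choose from. Unused probe sets correlated with the one used at -0.06 (Ctse) to 0.99 (Grn) over the arrays. Low values included 0.45 and 0.00 for Gla, 0.47 for Atp6v1a, 0.48 for Gusb and 0.50 for Man2b1.

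Lysosomes are acidic compartments in which proteins, glycans and lipids taken up or recycled by the cell are broken down. A proton pump (the V-ATPase) acidifies the lumen, heavily glycosylated membrane proteins such as LAMP1 and LAMP2 line it, and soluble hydrolases work inside it. In macrophages and other phagocytes, lysosomes digest engulfed cells and microbes, and some cysteine cathepsins also process antigens and the invariant chain of MHC class II molecules.

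Gene expression was measured with Affymetrix arrays on RNA of cells sorted by flow cytometry from male C57BL/6J mice aged 8 weeks, and the labels name no treatment and no genetic change. From bone marrow came SatM (an atypical monocyte that the labels tie to fibrosis, 2 arrays), inflammatory monocytes (2 arrays), SMP (labelled as the progenitor of SatM, 4 arrays), cMoP (the common monocyte progenitor, 4 arrays), MDP and GMP (1 array each). Titles of 2 SMP and 2 cMoP arrays carry WT, and the labels do not say how these differ from the numbered arrays. Spleen gave eosinophils, basophils and neutrophils, with 2 arrays each. A tissue panel with 1 array per cell type and tissue held M2-like resident macrophages (spleen and bone marrow), SatM (spleen, bone marrow, blood and lung), Msr1-dull Ceacam1-dull cells (bone marrow and lung), Msr1-negative Ceacam1-negative cells (spleen, bone marrow and blood) and other Ly6C-negative cells (spleen and blood). The panel also held 2 lung macrophage arrays, titled MP_BAL and F480 posi_BAL, which the labels both call resident macrophages; they are different sorts, taken here as 1 group of 2 arrays. Msr1 and Ceacam1 are surface proteins used in these sorts. The labels do not say that replicate arrays came from separate mice, so outside the panel p-values measure only the spread between these arrays. In the panel, p-values rest on departures from a fit that adds a cell type term and a tissue term. Such departures include differences between cell types that vary by tissue, and not only spread between replicate arrays.

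Expression was given on a log2 scale with a common floor of 2.30, and 45.9% to 49.0% of an array's probe sets sat at that floor. Correlation between arrays of 1 group ran from 0.868 for the Msr1-dull Ceacam1-dull arrays to 0.997 for the inflammatory monocytes. Marker levels, as the mean log2 value of a list, went against the label of some sorts. SMP arrays had 13.04 to 13.71 for 6 basophil and mast cell markers and 4.67 to 5.83 for 6 monocyte markers, against 3.20 to 3.55 and 8.20 to 9.54 in cMoP arrays. Msr1-negative Ceacam1-negative arrays, labelled as monocytes, had 9.95 to 11.37 for 5 NK cell markers and 4.37 to 6.30 for the monocyte markers. In these sorted bulk samples, fewer cells of a type and less RNA per cell cannot be told apart.

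Lysosomal genes were highest in macrophages. The mean of the lung macrophages was the highest of the 13 cell groups with at least 2 arrays for 25 of the 34 genes, and the mean of the M2-like macrophages for 4 (Ctsb, Ctsf, Lgmn and Man2b1). Basophils had the highest mean of Glb1 and Smpd1, eosinophils of Mcoln1, SMP of Ctse, and inflammatory monocytes of Npc2. The lowest mean lay in the Msr1-negative Ceacam1-negative cells for 11 genes and in SMP for 9. These ranks are a description of group means, and neighbouring groups often overlapped.

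**Figure D1:**
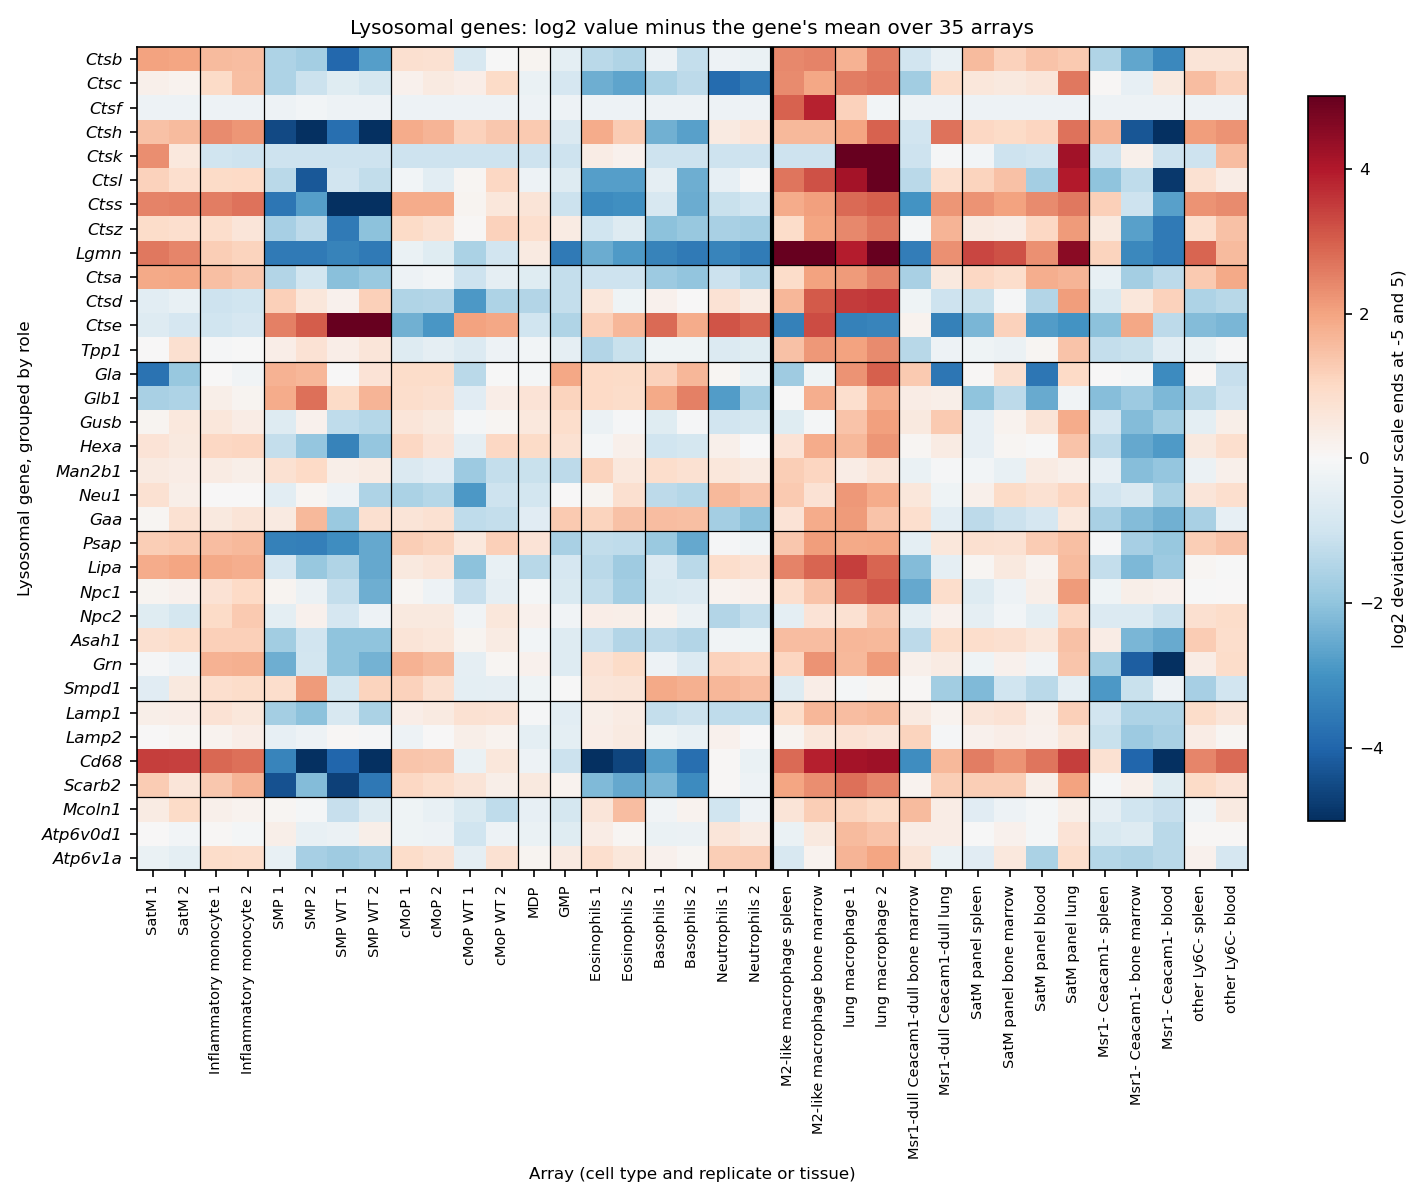
Colour shows the log2 value of each of the 34 lysosomal genes (rows, grouped by role) on each of the 35 arrays (columns), minus that gene's mean over all arrays. Thin lines part cell groups and roles, the thick line parts the tissue panel on the right. Lung and M2-like macrophage columns are mostly red, SMP and Msr1-negative Ceacam1-negative columns mostly blue, and Ctse and Ctsd run the other way in SMP.

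Averaged over the 34 genes, the deviation from each gene's own mean was 2.07 and 2.26 log2 units on the 2 lung macrophage arrays. It was 0.97 and 1.79 on the M2-like arrays of spleen and bone marrow. The lung SatM array had 1.46, and the other 3 panel SatM arrays had 0.01 to 0.44. Marrow SatM had 0.54 and 0.58 and inflammatory monocytes 0.78 and 0.80. The 4 SMP arrays had -0.93, -0.94, -1.50 and -1.42, and the Msr1-negative Ceacam1-negative arrays -0.66 in spleen, -1.46 in bone marrow and -2.04 in blood. Over all genes the same measure stayed between -0.21 and 0.13 on every array. MDP had -0.12 and GMP -0.45, each from 1 array.

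**Figure D2:**
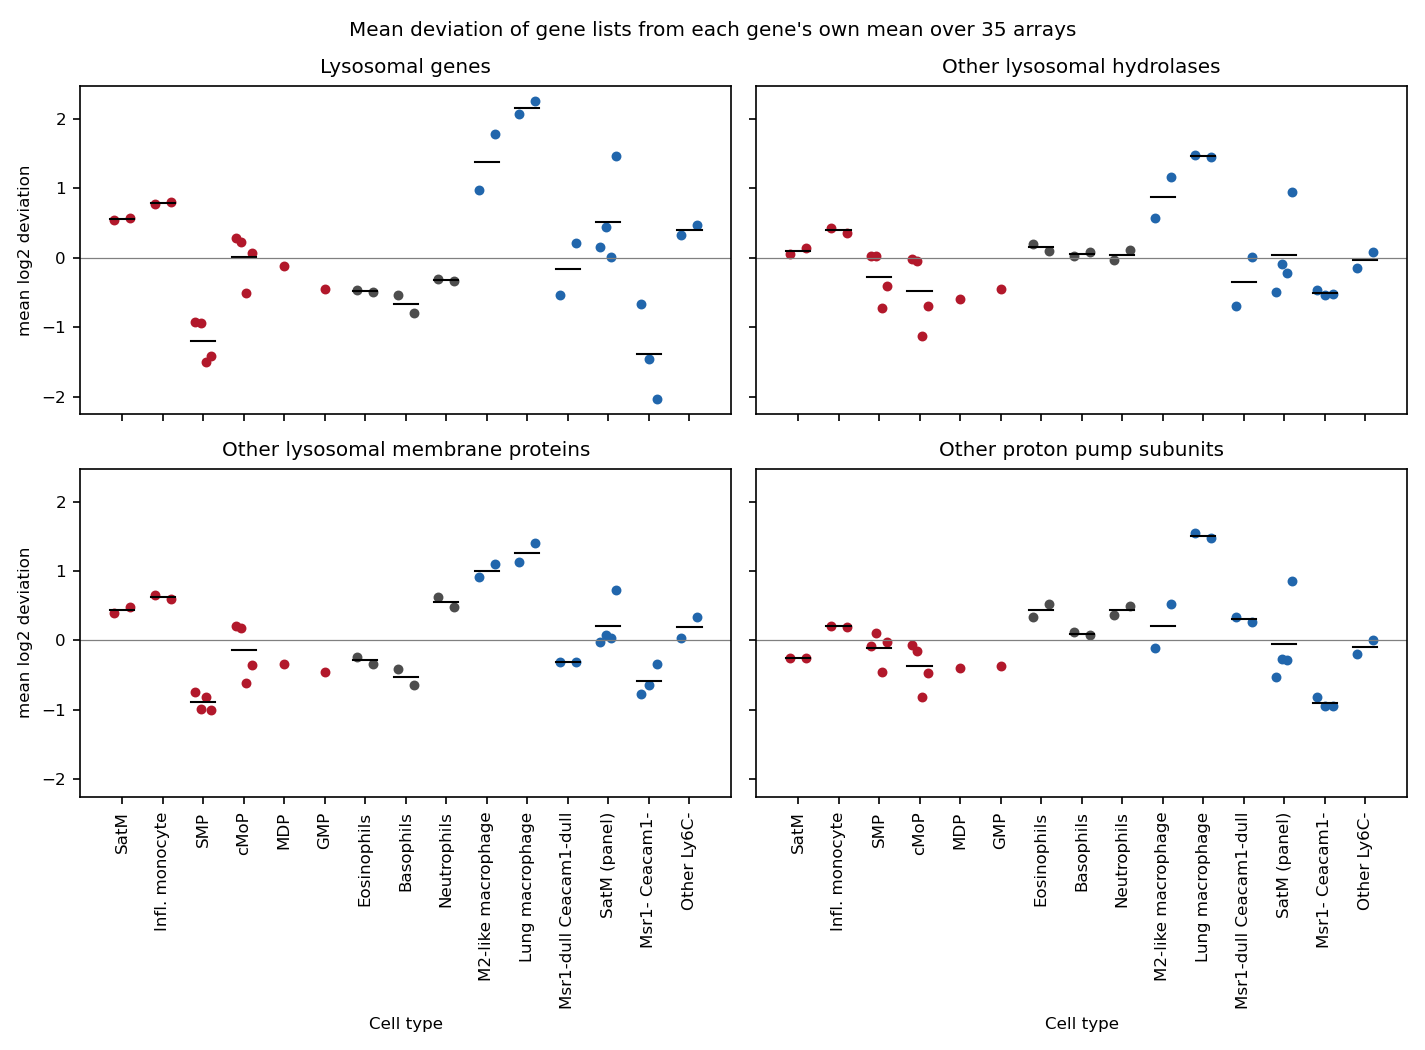
Each point is 1 array, and the vertical axis is the mean log2 deviation of a gene list from each gene's own mean over the 35 arrays; bars are group means. Marrow cells are red, spleen granulocytes grey and the tissue panel blue. The 34 lysosomal genes span -2.04 to 2.26, and in the list of other hydrolases SMP and cMoP arrays overlap.

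TFEB and its relatives are transcription factors known in human and mouse cells to act on many lysosomal genes through an E-box with the letters CACGTG, most often within the longer core TCACGTGA. Both motifs are palindromes, so both strands were searched at once, and every longer match is also an E-box match. The start windows (250 bases before to 50 after the RefSeq start, GRCm38.p6) were available for 29 of the 34 genes. The E-box was present in 12 of the 29 windows, which is 41.4%, against 10.2% of the 14452 genes with a value and a window and 8.09% of all 27025 windows. The core was present in 6 of the 29 (Ctsa, Ctsd, Gla, Mcoln1, Atp6v0d1 and Atp6v1a), which is 20.7%, against 1.63% and 1.12%. The following stretches are shown because they hold such matches in genes called in at least 1 comparison, with 1 match of each stretch in capitals; the sequences are from RefSeq.
Ctsd (chr7:142387893-142387952, minus strand): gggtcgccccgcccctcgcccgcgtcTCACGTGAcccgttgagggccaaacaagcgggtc
Gla (chrX:134601167-134601226, minus strand): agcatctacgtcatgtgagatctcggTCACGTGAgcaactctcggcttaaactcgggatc
Ctsa (chr2:164833734-164833793, plus strand): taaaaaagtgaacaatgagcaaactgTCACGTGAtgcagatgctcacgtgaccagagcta
Mcoln1 (chr8:3500447-3500506, plus strand): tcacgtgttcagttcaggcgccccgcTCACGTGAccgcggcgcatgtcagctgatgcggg
Atp6v1a (chr16:44139358-44139417, minus strand): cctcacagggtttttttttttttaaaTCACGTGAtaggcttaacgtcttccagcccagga
Glb1 (chr9:114401003-114401062, plus strand): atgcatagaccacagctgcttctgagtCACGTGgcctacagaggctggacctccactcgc
Lgmn (chr12:102439109-102439168, minus strand): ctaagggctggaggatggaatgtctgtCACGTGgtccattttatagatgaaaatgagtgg
Lamp1 (chr8:13159106-13159165, plus strand): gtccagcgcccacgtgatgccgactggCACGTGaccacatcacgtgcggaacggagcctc
The Ctsa window holds 2 core matches and the Lamp1 window 4 E-box matches. A match is a description of these letters and not a shown binding site. Called genes were found both with and without a match. In SMP against cMoP, 2 of the 11 tested genes with an E-box were called higher and 5 lower, against 3 and 10 of the 17 with a window but no E-box.

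**Figure D3:**
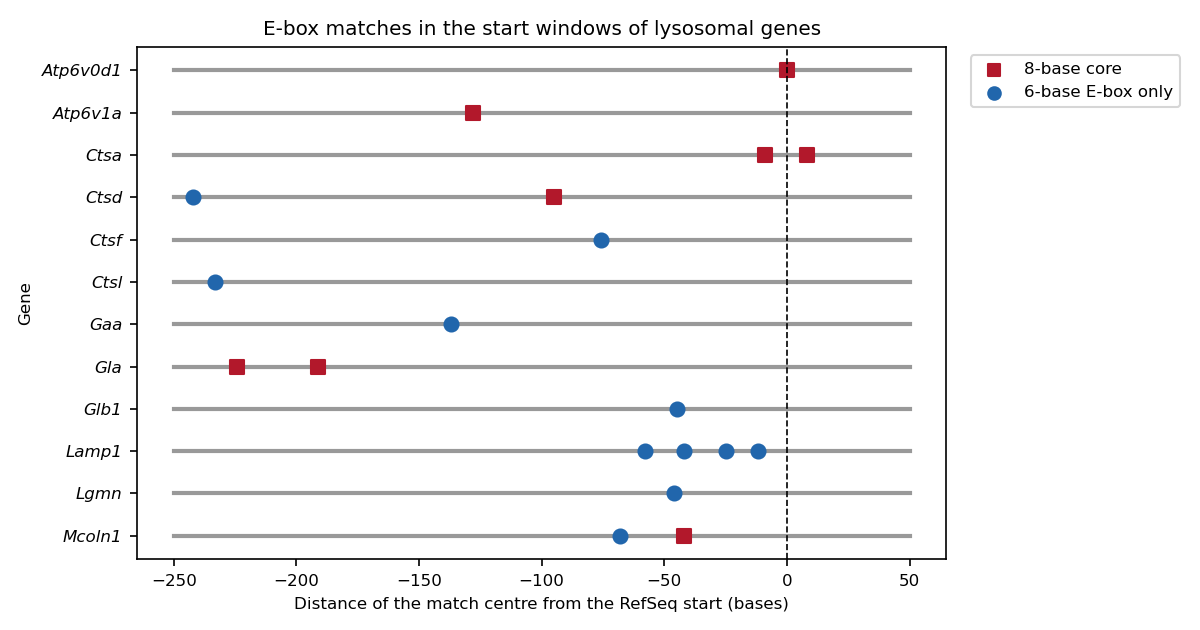
Each grey line is the start window of a gene with at least 1 match, and the horizontal axis is the distance in bases of the match centre from the RefSeq start. Squares mark the 8-base core and circles an E-box outside it; all but 1 of the matches (the second of Ctsa) are centred at or before the start.

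SMP and cMoP are labelled as progenitors of SatM and of monocytes. Among the roles, the largest median log2 differences in SMP were those of 4 lysosomal membrane glycoproteins (-3.25) and 8 cysteine cathepsins with legumain (-2.65). Of 33 genes tested (Ctsf lay below the filter on dim genes in the marrow and granulocyte arrays), 18 were called lower and 6 higher in SMP, where a call needs an adjusted p under 0.05 and a log2 difference of at least 1. That is 72.7% of the genes tested, against 35.5% of all 12077 genes (12.8% higher and 22.7% lower). The median log2 difference was -1.12 over the lysosomal genes and -0.09 over all genes. All 7 called cysteine proteases of the 8 tested were lower in SMP, whereas 3 of the 4 aspartic and serine proteases were higher.

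Among the cysteine cathepsins, Ctsh (an aminopeptidase) had 5.45, 2.30, 6.21 and 2.41 in SMP arrays, against 11.83, 11.68, 11.12 and 11.33 in cMoP arrays. The groups did not overlap, and 1 SMP array was at the floor. Its log2 difference was -7.40 ± 0.73 (SE, adjusted p = 4.13e-06). Ctss, which degrades the invariant chain in antigen-presenting cells, had 8.36 and 9.23 in numbered SMP arrays and 4.38 and 2.99 in WT-titled ones, against 13.84, 13.86, 12.12 and 12.57 in cMoP arrays. All SMP arrays lay below all cMoP arrays, with a log2 difference of -6.85 ± 0.62 (adjusted p = 1.99e-06). The Ctss difference was larger in the WT-titled set by 3.61 log2 units (difference of differences -3.61 ± 0.73, adjusted p = 0.0313), and it was the only lysosomal gene so called among 33, against 1.75% of all genes (1.05% more positive and 0.696% more negative). Ctsz had 9.53, 9.91, 7.66 and 9.17 in SMP, against 12.18, 11.98, 11.26 and 12.38 in cMoP. Ctsb, one of the broadly active cathepsins, had 10.03, 9.89, 7.66 and 8.85 in SMP, against 12.40, 12.35, 10.81 and 11.57 in cMoP. The Ctsz and Ctsb groups did not overlap, with log2 differences of -2.88 and -2.68 (adjusted p = 1.53e-05 and 4.16e-06). Legumain (Lgmn, an asparaginyl endopeptidase that also activates cathepsins) lay at or near the floor in SMP at 2.30 to 2.51, against 4.28 to 5.51 in cMoP. Ctsl and Ctsc, the enzyme that activates granule serine proteases, were also called lower (-2.05 and -1.52).

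The aspartic proteases ran the other way. Ctse, an endosomal aspartic protease, had 8.17 and 8.70 in numbered and 10.63 and 11.49 in WT-titled SMP arrays, against 3.25, 2.77, 7.69 and 7.60 in the matching cMoP arrays. In cMoP the WT-titled arrays were far above the numbered ones, yet all cMoP values lay below all SMP values. The log2 difference was 4.42 ± 0.39 (adjusted p = 1.65e-06). These Ctse values rest on 1 probe set. An unused Ctse probe set ranged from 2.30 to 7.84 and correlated with it at -0.06 over the arrays. Ctsd, the major aspartic protease of lysosomes, averaged 11.35 ± 0.48 in SMP and 8.72 ± 0.68 in cMoP (SD, n = 4 arrays each), with a log2 difference of 2.63 (adjusted p = 1.52e-05). Tpp1, a tripeptidyl peptidase, was higher by 1.01 log2 units. Ctsa, a carboxypeptidase that also protects sialidase and beta-galactosidase, was lower (-1.12), with overlapping arrays. Among glycosidases Man2b1 (lysosomal alpha-mannosidase, 1.70), Glb1 (beta-galactosidase, 1.46) and Neu1 (sialidase, 1.17) were higher, and Hexa and Gusb lower; Neu1 and Gusb overlapped. Hexa, the alpha subunit of hexosaminidase A, had 10.22, 9.45, 8.06 and 9.48 in SMP, against 12.43, 12.08, 10.95 and 12.44 in cMoP.

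Of the 7 genes listed under lipid hydrolysis and export, a list that also holds progranulin (Grn), 4 were lower in SMP and none was called higher. Psap, the precursor of the saposins that activate sphingolipid hydrolysis, had 8.89, 8.86, 9.18 and 9.73 in SMP, against 13.49, 13.40, 12.81 and 13.48 in cMoP. The groups did not overlap (log2 difference -4.13 ± 0.22, adjusted p = 1.43e-08). Grn, progranulin, had 8.33, 9.84, 8.75 and 8.39 in SMP, against 12.49, 12.35, 10.33 and 10.88 in cMoP (log2 difference -2.68). Asah1 (acid ceramidase) and Lipa (lysosomal acid lipase) had differences of -2.13 and -1.36, and the SMP and cMoP arrays overlapped for Lipa. Among membrane proteins, Cd68, a glycoprotein of macrophage lysosomes, had 5.98, 3.70, 5.32 and 3.18 in SMP, against 10.67, 10.65, 8.97 and 9.84 in cMoP. Scarb2, which carries glucocerebrosidase to lysosomes, had 4.99, 7.18, 4.70 and 5.80 in SMP, against 9.64 to 10.40 in cMoP. Neither gene overlapped between the groups, with log2 differences of -5.49 (adjusted p = 2.45e-06) and -4.41 (adjusted p = 2.45e-06). Lamp1 was lower (-2.10), while Lamp2 was not called. Of the pump and channel genes only the pump subunit Atp6v1a was called (-1.84), with overlapping arrays. The basophil and mast cell markers were at 13.04 to 13.71 in SMP, against 3.20 to 3.55 in cMoP, where 4 of 6 lay at the floor (Ms4a2, Fcer1a, Cpa3 and Cd200r3), and their part in these differences was not tested.

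**Figure D4:**
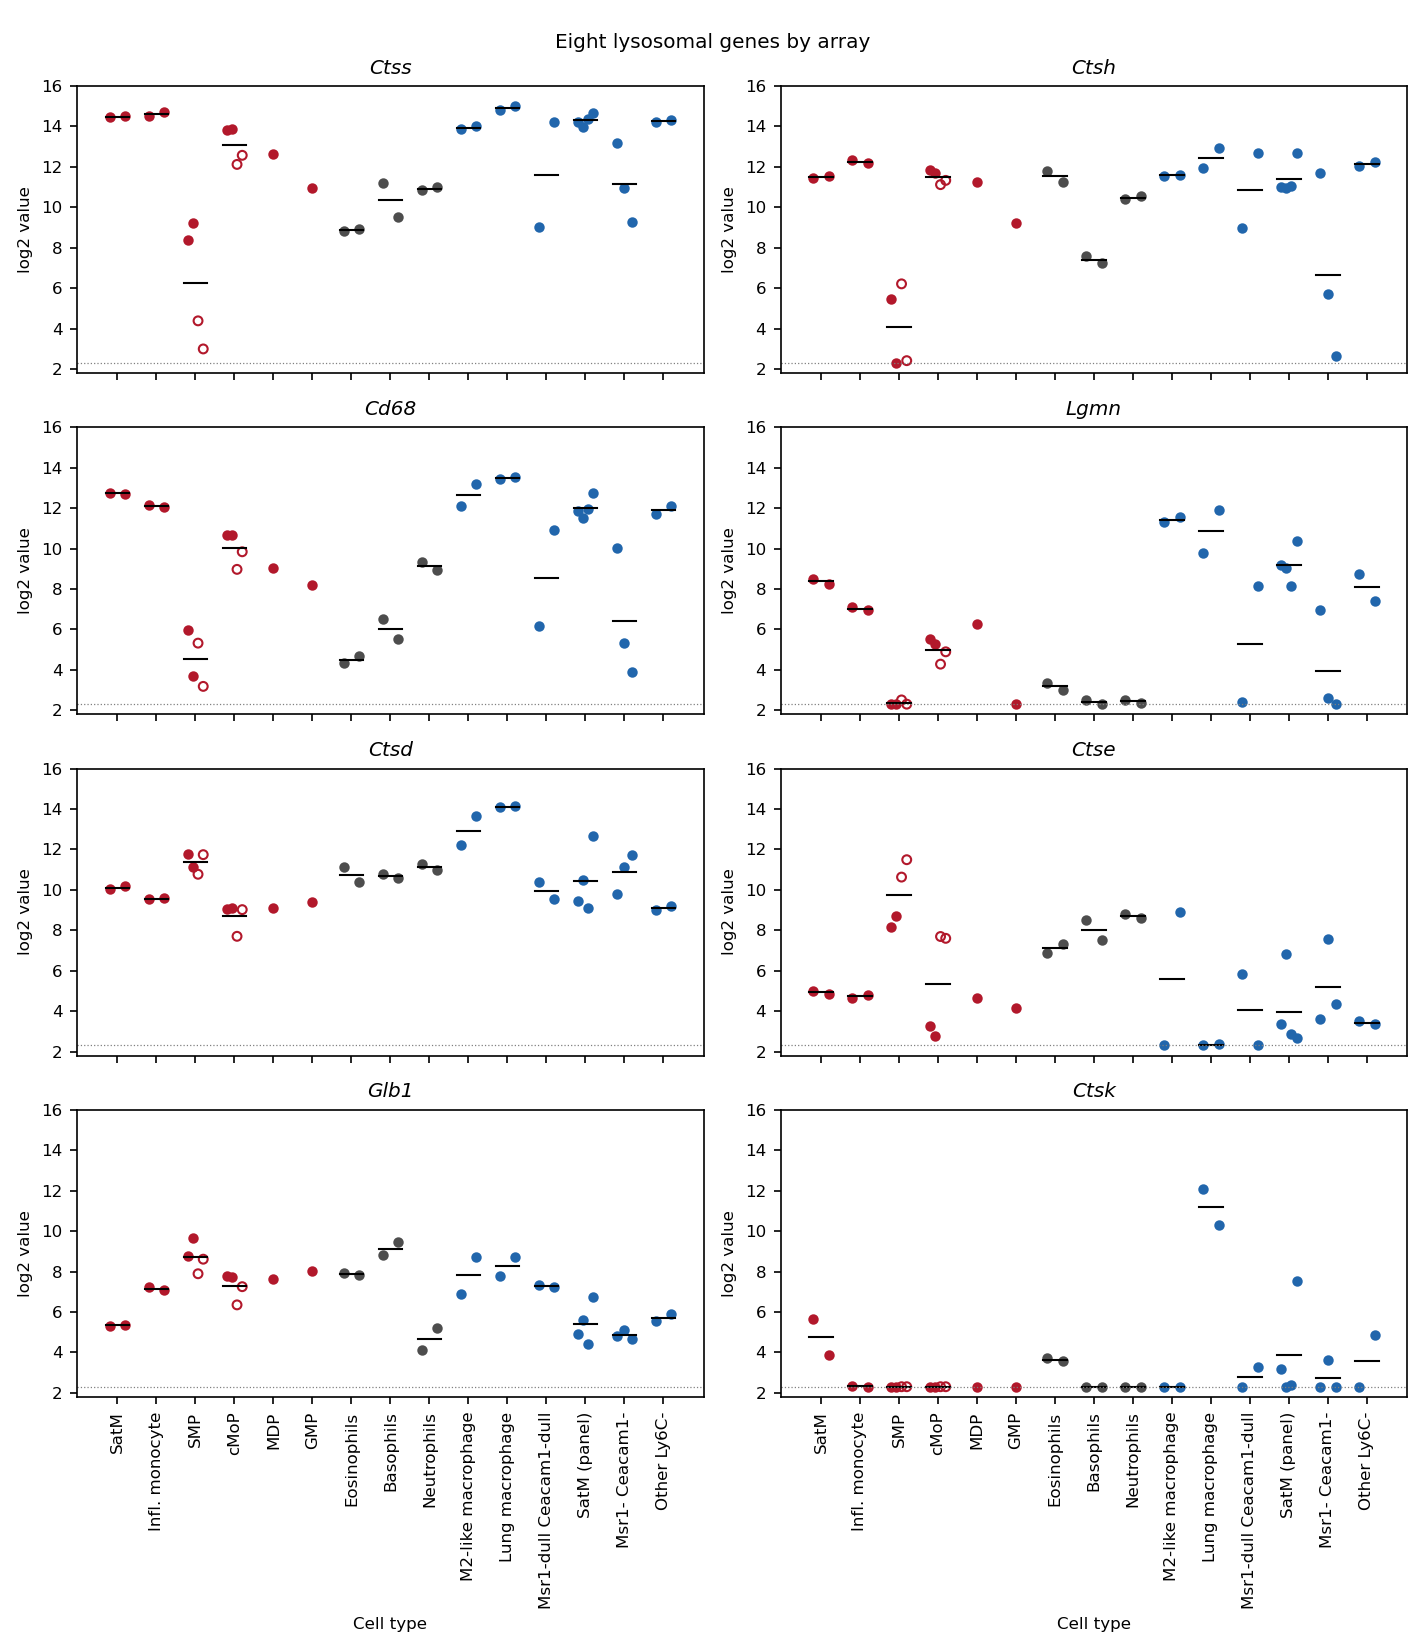
Points are log2 values of single arrays for 8 lysosomal genes, by cell type; bars are group means, open circles are WT-titled arrays and the dotted line is the floor of the table. Marrow cells are red, granulocytes grey and the tissue panel blue. Ctss, Ctsh and Cd68 are low in SMP, where Ctsd and Ctse are high, and Ctsk is far above the floor on both lung macrophage arrays.

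SatM against SMP, the step that the labels place between progenitor and monocyte, ran largely the opposite way; the comparisons share the SMP arrays. In SatM, 17 of the 33 genes were called higher and 5 lower, which is 66.7% against 26.8% of all genes (12.8% higher and 14% lower), and the median log2 difference was 1.20, against -0.03 over all genes. Differences against SMP or cMoP come from the fit with a term for the WT-titled arrays, so they are not the plain differences of the array values. Cd68 had 12.76 and 12.69 in SatM, against 3.18 to 5.98 in SMP, and the fit put it 7.72 ± 0.67 log2 units higher (SE, adjusted p = 1.98e-06). Ctsh had 11.44 and 11.54 in SatM, against 2.30 to 6.21 in SMP, and a difference of 7.37 (adjusted p = 6.95e-05). Ctss had 14.48 and 14.50 in SatM, against 2.99 to 9.23 in SMP, and a difference of 6.59 (adjusted p = 4.59e-05). For these genes both SatM arrays lay far above all 4 SMP arrays.

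Lgmn had 8.50 and 8.27 in SatM, against 2.30 to 2.51 in SMP (fitted difference 5.85 ± 0.29, adjusted p = 1.34e-08). Psap, Scarb2 and Ctsb were higher by 4.45, 4.31 and 3.77, and Ctsl and Ctsa by 3.58 and 3.18. Ctsk, an elastin- and collagen-degrading cathepsin best known from osteoclasts, had 5.67 and 3.88 in SatM and was at the floor on all 4 SMP arrays, which puts it at least 5.58-fold higher in SatM. The genes called lower in SatM were Gla, the alpha-galactosidase that cleaves globotriaosylceramide, Glb1, Ctse, Smpd1 (acid sphingomyelinase) and Ctsd. Gla had 3.25 and 5.04 in SatM, against 8.67, 8.57, 6.93 and 7.61 in SMP (difference -4.54, adjusted p = 1.43e-05). Glb1 had 5.29 and 5.37 in SatM, against 8.77, 9.68, 7.89 and 8.61 in SMP (difference -3.90, adjusted p = 9.23e-06). In both, the SatM arrays of this fit lay below every SMP array. The marrow SatM array of the panel was not in this fit. It had 7.72 for Gla, within the SMP range, 5.60 for Glb1, below the SMP arrays, and 2.30, the floor, for Ctsk. The Smpd1 arrays overlapped.

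Inflammatory monocytes against cMoP showed far fewer changes. Only 3 of 33 genes were called, all higher, which is 9.09% against 14.9% of all genes (6.62% higher and 8.25% lower). Lgmn had 7.09 and 6.95 in inflammatory monocytes, against 5.51, 5.26, 4.28 and 4.89 in cMoP (fitted log2 difference 1.86, adjusted p = 0.000676). Ctsa had 10.96 and 10.83 in inflammatory monocytes, against 9.22, 9.35, 8.43 and 9.02 in cMoP (1.56, adjusted p = 0.000311). Man2b1 had 10.64 and 10.55 in inflammatory monocytes, against 9.53, 9.68, 8.44 and 9.04 in cMoP (1.08, adjusted p = 0.00314). None of these overlapped. The difference between the SatM step and the inflammatory monocyte step was called for 19 of 33 genes, 13 higher and 6 lower in the SatM step, against 22.3% of all genes (11.1% in either direction). It was largest for Ctss (6.72), Ctsh (6.64), Cd68 (6.10) and Ctse (-4.25). The same contrast equals the SatM minus inflammatory monocyte difference less the SMP minus cMoP difference. It therefore repeats much of the SMP against cMoP result with the sign turned and is not a separate result.

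Between the 2 mature marrow monocytes, SatM and inflammatory monocytes, 2 genes were called higher and 6 lower in SatM. These 8 of 33 genes are 24.2%, against 9.34% of all genes (2.87% higher and 6.47% lower), and the medians were -0.15 for the lysosomal genes and -0.02 for all genes. Ctsk had 5.67 and 3.88 in SatM, against 2.36 and 2.30 in inflammatory monocytes (log2 difference 2.45 ± 0.37, adjusted p = 0.000932). Lgmn had 8.50 and 8.27 in SatM, against 7.09 and 6.95 in inflammatory monocytes (1.37, adjusted p = 0.0135). Both genes were higher on each SatM array than on each inflammatory monocyte array.

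Npc2, which binds cholesterol in the lysosomal lumen, had 11.72 and 11.44 in SatM, against 13.26 and 13.62 in inflammatory monocytes (-1.86 ± 0.29, adjusted p = 0.0012). Gla had 3.25 and 5.04 in SatM, against 6.93 and 6.75 in inflammatory monocytes (-2.70 ± 0.53, adjusted p = 0.00577). Glb1 had 5.29 and 5.37 in SatM, against 7.22 and 7.08 in inflammatory monocytes (-1.83, adjusted p = 0.0167). The SatM arrays were below the inflammatory monocyte arrays for all 3 genes. Grn had 10.70 and 10.52 in SatM, against 12.49 and 12.54 in inflammatory monocytes (-1.91, adjusted p = 0.0161). Ctsc and Atp6v1a were lower with differences of -1.03 and -1.31. Npc2 alone of the 8 was called in every alternative run, and leaving out any of the 4 arrays left 3 or 4 calls. The marrow SatM array of the panel had 2.30 for Ctsk and 7.72 for Gla, and neither was called once it was added to the SatM group. The mean of 5 eosinophil markers was 6.33 and 7.44 on the SatM arrays, with Il5ra and Ccr3 at the floor, against 2.30 on both inflammatory monocyte arrays, where all 5 were at the floor, and its part in the differences was not tested.

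Marrow monocytes (SatM and inflammatory monocytes) against spleen granulocytes gave 16 genes called higher and 3 lower of 33, which is 57.6% against 31.3% of all genes (15.5% higher and 15.8% lower). Tissue went with cell class here and cannot be told apart from it. Cd68 had 12.06 to 12.76 on the 4 monocyte arrays, against 4.32 and 4.68 in eosinophils, 6.52 and 5.52 in basophils and 9.34 and 8.95 in neutrophils (log2 difference 5.86, adjusted p = 5.18e-07). Lgmn had 6.95 to 8.50 in monocytes, against 2.30 to 3.36 in granulocytes (5.03, adjusted p = 1.05e-09). Ctss had 14.48 to 14.70 in monocytes, against 8.84 to 11.19 in granulocytes (4.50, adjusted p = 3.20e-05). The monocyte arrays lay above all 6 granulocyte arrays for all 3 genes. Ctsc, Ctsa and Scarb2 were higher by 3.28, 3.06 and 2.97. Ctse was lower in monocytes at 4.67 to 5.0, against 6.87 to 8.81 in granulocytes (-3.11, adjusted p = 1.51e-05), and Ctsd was lower too. Gla was called lower with overlapping arrays. It had 3.25 and 5.04 in SatM and 6.93 and 6.75 in inflammatory monocytes, against 6.58 to 8.59 in granulocytes.

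Against neutrophils, 2 of 7 glycosidases were called in eosinophils (both higher) and 4 of 7 in basophils (3 higher, 1 lower). Of the 7 genes listed under lipid hydrolysis and export, 1 was called higher and 4 lower in eosinophils, and likewise 1 and 4 in basophils. Glb1 had 7.91 and 7.84 in eosinophils and 8.80 and 9.45 in basophils, against 4.12 and 5.21 in neutrophils. Its log2 difference from neutrophils was 3.21 in eosinophils (adjusted p = 6.70e-05) and 4.45 in basophils (adjusted p = 4.30e-06); these comparisons share the neutrophil arrays. Gaa (acid alpha-glucosidase, which degrades glycogen) had 7.33 and 7.70 in eosinophils and 7.78 and 7.72 in basophils, against 4.54 and 4.19 in neutrophils. Neither eosinophil nor basophil arrays overlapped the neutrophil arrays for these 2 genes. Cd68 was lower in eosinophils (-4.64) and basophils (-3.12) than in neutrophils, and so were Scarb2, Lipa, Psap and Asah1. Ctsc had 7.76 and 7.57 in eosinophils and 8.63 and 8.89 in basophils, against 6.36 and 6.66 in neutrophils. In all, eosinophils had 7 genes called higher and 9 lower than neutrophils (48.5% of 33, against 40.5% of all genes, 23.1% higher and 17.4% lower), and basophils 5 higher and 9 lower (42.4%, against 37.4%, 21.9% higher and 15.6% lower). Both shares are near the share of all genes. Basophils against neutrophils had 9 calls without the second basophil or the first neutrophil array.

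Eosinophils against basophils gave 5 genes called higher and 2 lower (21.2%, against 20.6% of all genes, 9.36% higher and 11.3% lower). Leaving out 1 array gave 5 calls without the first basophil array, 2 without the second, and 3 without either eosinophil array. Ctsh had 11.80 and 11.25 in eosinophils, against 7.57 and 7.24 in basophils (log2 difference 4.12, adjusted p = 0.0116). Lamp1 had 12.16 and 12.26 in eosinophils, against 10.67 and 10.77 in basophils (1.49, adjusted p = 0.000369), and was the only 1 of the 7 called in every alternative run. Mcoln1, a cation channel of the lysosomal membrane, had 8.57 and 9.5 in eosinophils, against 7.79 and 8.14 in basophils (1.07, adjusted p = 0.0491). Ctsk was at the floor in basophils and had 3.70 and 3.57 in eosinophils, at least 2.53-fold higher. The 7 neutrophil markers averaged 10.45 and 11.13 on the basophil arrays and 8.83 and 9.21 on the eosinophil arrays, and their part in the differences was not tested.

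In the tissue panel, M2-like macrophages had 8 of 34 genes called higher and none lower than SatM, which is 23.5% against 8.31% of all genes (5.39% higher and 2.92% lower); the fit has terms for cell type and tissue. Ctsf, a cysteine cathepsin, had 5.50 in spleen and 6.42 in bone marrow M2-like macrophages, against 2.30, the floor, on all 4 SatM arrays, so it was at least 12.7-fold higher (adjusted p = 0.000993). Ctsf had 3.69 and 2.42 on the lung macrophage arrays and 2.43 on 1 SMP array. Lipa had 10.96 and 11.39 in M2-like macrophages, against 8.55, 8.94, 8.64 and 10.05 in SatM of spleen, bone marrow, blood and lung (fitted difference 2.48, adjusted p = 0.00571). Tpp1 had 10.82 and 11.53 in M2-like macrophages, against 9.17, 9.09, 9.48 and 10.78 in SatM (2.01, adjusted p = 0.00274). Neither gene overlapped, although the lung SatM array came close for Tpp1. Glb1 had 6.89 and 8.73 in M2-like macrophages, against 4.91, 5.60, 4.41 and 6.74 in SatM (2.55, adjusted p = 0.0193). Ctsd, Ctsc, Npc1 and Scarb2 were called higher with overlapping arrays. Leaving out 1 array gave 3 to 8 calls, and the fit of the compared groups alone gave 0. The B cell markers averaged 7.46 and 8.08 and the T cell markers 4.79 and 7.09 on the M2-like arrays, against 2.52 to 8.24 and 2.45 to 5.61 on the SatM arrays, and their part was not tested.

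No lysosomal gene was called between lung macrophages and SatM by limma, where 0.239% of all genes were called (0.128% higher and 0.111% lower). Of the 34 genes 10 had an unadjusted p under 0.05, as did 806 of all genes. The fitted difference was above 0 for 27 of 34 genes, with a median of 0.65, against 0.02 over all genes. Lung macrophages came from lung alone, so with the tissue term the difference rests on the single lung SatM array and on the fitted tissue effect. Ctsk had 12.10 and 10.31 in lung macrophages, against 3.19, 2.30, 2.39 and 7.54 in SatM of spleen, bone marrow, blood and lung. Ctsd had 14.08 and 14.13 in lung macrophages, against 9.46, 10.51, 9.10 and 12.67 in SatM. In both genes all lung macrophage arrays lay above all SatM arrays, and the lung SatM array was the highest of the SatM arrays. The alveolar macrophage marker list (7 measured) averaged 11.83 and 8.50 on the lung macrophage arrays, against 7.23 to 8.22 in SatM. Of these markers Car4 had 12.05 and 6.67 in lung macrophages, against 6.50 on the lung SatM array and 2.30 on the other 3 SatM arrays. Marco had 11.33 and 4.59 in lung macrophages, against 6.01 on the lung SatM array and 2.30 to 2.72 on the others. The 6 lung epithelium markers averaged 4.09 to 6.61 in lung macrophages, against 2.51 to 5.51 in SatM. Scgb1a1 had 13.43 and 6.39 in lung macrophages, against 8.27 on the lung SatM array and 2.30 on the other 3, while Sftpb was at the floor on all 6 arrays. Cdh1 went the other way, with 9.63 and 8.94 in lung macrophages, against 11.13 on the lung SatM array and 3.59 to 5.32 on the others. Epcam had 7.18 and 2.30 in lung macrophages, against 6.70 on the lung SatM array and 2.30 on the others. Sftpc and Sftpa1 were at most 3.63 and 3.48 on these arrays. The part of these markers in the lysosomal values was not tested. Without the lung SatM array, 4 lysosomal genes were called, all higher in lung macrophages. That count is given without the share of all genes in the same run, so it is not read as a result about lysosomal genes. Runs without 1 array gave 14 to 1269 calls over all genes, against 28 with every array.

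Between tissues of the panel, the fitted lung minus bone marrow term called 4 genes higher and 1 lower of 34 (14.7%, against 9.3% of all genes, 6.25% higher and 3.05% lower). Lung macrophages came from lung alone and do not inform this term. It rests on SatM and Msr1-dull Ceacam1-dull cells, with 1 lung array each. The Msr1-dull Ceacam1-dull arrays correlated at 0.868. Their neutrophil markers averaged 10.32 in bone marrow and 3.78 in lung, and their eosinophil markers 8.72 and 3.24. Higher in lung were Npc1 (the cholesterol transporter of the lysosomal membrane, 2.76), Ctsc (2.50), Lipa (1.52) and Tpp1 (1.37). Ctse was lower in lung by a fitted difference of -4.16 (adjusted p = 0.0152). Its lung values were 2.30 and 2.36 in macrophages, 2.67 in SatM and 2.30 in Msr1-dull Ceacam1-dull cells, against 8.92 in M2-like macrophages, 6.83 in SatM, 5.85 in Msr1-dull Ceacam1-dull cells and 7.58 in Msr1-negative Ceacam1-negative cells of bone marrow. Every lung array lay below every bone marrow array of the panel for Ctse. This was not particular to lung. Ctse had 2.30 to 3.60 on the spleen and 2.87 to 4.34 on the blood arrays of the panel, also below every bone marrow array. Erythroid markers also differed between the lung and bone marrow arrays. Slc4a1 had 8.81 to 11.76 and Alas2 6.22 to 9.40 on the bone marrow arrays, against 2.30 on every lung array. Klf1 had 2.30 to 6.02 in bone marrow and 2.30 in lung, and Hba-a1 was at the floor throughout. The part of these markers was not tested.

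SatM had 16 of 34 genes called higher and none lower than Msr1-negative Ceacam1-negative cells, which is 47.1% against 10.2% of all genes (4.94% higher and 5.28% lower), with a median fitted difference of 1.65 against -0.06 over all genes. Ctsb had 13.17, 12.74, 13.00 and 12.90 in SatM of spleen, bone marrow, blood and lung, against 10.09, 8.99 and 8.37 in Msr1-negative Ceacam1-negative cells of spleen, bone marrow and blood (fitted difference 3.77 ± 0.36, adjusted p = 0.000934). Lamp1 had 12.48, 12.56, 12.12 and 13.05 in SatM, against 10.90, 10.30 and 10.31 in Msr1-negative Ceacam1-negative cells (1.96, adjusted p = 0.00316). Lamp2 had 13.00, 13.13, 13.01 and 13.35 in SatM, against 11.67, 10.99 and 11.19 in Msr1-negative Ceacam1-negative cells (1.90, adjusted p = 0.00713). None of these 3 genes overlapped between the groups. Cd68 had 11.84, 11.52, 11.95 and 12.73 in SatM, against 10.05, 5.33 and 3.90 in Msr1-negative Ceacam1-negative cells (5.01 ± 1.30, adjusted p = 0.0466). Lgmn had 9.17, 9.03, 8.13 and 10.37 in SatM, against 6.96, 2.62 and 2.30 in Msr1-negative Ceacam1-negative cells (4.45, adjusted p = 0.0382). Grn had 10.56, 10.99, 10.61 and 12.14 in SatM, against 9.02, 6.65 and 5.47 in Msr1-negative Ceacam1-negative cells (3.77, adjusted p = 0.0181). For Cd68, Lgmn and Grn the spleen array of the Msr1-negative Ceacam1-negative cells lay nearest to SatM. Leaving out 1 array gave 5 to 19 calls, with 5 without the blood array and 19 without the spleen array of the Msr1-negative Ceacam1-negative cells, and the compared groups alone gave 0. All 5 measured NK cell markers were above the floor on at least 1 array of the Msr1-negative Ceacam1-negative cells, at a mean of 9.95 to 11.37, against 2.87 to 4.13 in SatM, where Ncr1, Klrk1 and Eomes were at the floor, and their part was not tested.

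Msr1-dull Ceacam1-dull cells had 1 of 34 genes called against SatM, Ctsc, which was lower (fitted difference -1.88, adjusted p = 0.0281; 2.94% against 0.256% of all genes, 0.102% higher and 0.153% lower). Ctsc had 8.46 in bone marrow and 11.11 in lung Msr1-dull Ceacam1-dull cells, against 10.75, 10.67, 10.80 and 12.83 in SatM of spleen, bone marrow, blood and lung, so the groups overlapped while the cells were lower than SatM within each shared tissue. The call was lost without any of the spleen, bone marrow or blood SatM arrays or the bone marrow Msr1-dull Ceacam1-dull array. Without the lung SatM array 10 genes were called, 1 higher and 9 lower. That count too is given without the share of all genes in the same run and is not read as a result about lysosomal genes. Calls over all genes ranged from 5 to 1844 without 1 array, against 30 with every array. The 2 Msr1-dull Ceacam1-dull arrays differed from each other: Ctss had 9.02 in bone marrow and 14.21 in lung, Cd68 6.19 and 10.90, and Lgmn 2.41 and 8.14 in the same order. Neutrophil markers averaged 10.32 and eosinophil markers 8.72 on the bone marrow array, and 3.78 and 3.24 on the lung array.

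**Figure D5:**
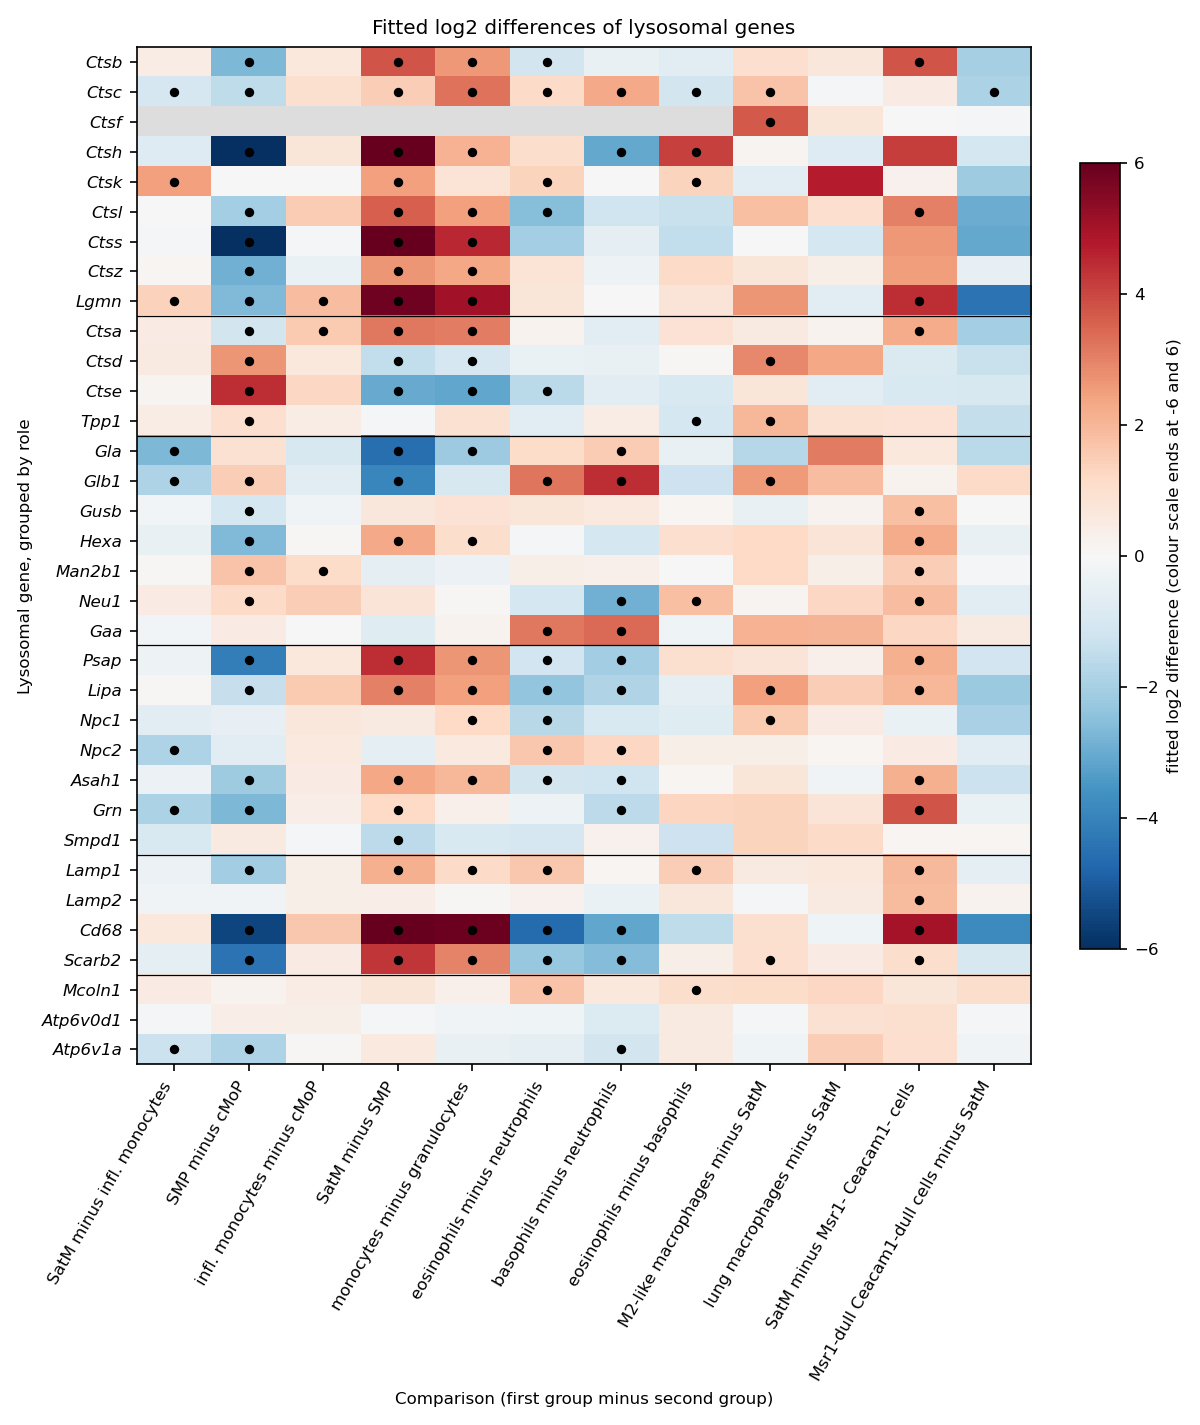
Colour shows the fitted log2 difference of each lysosomal gene (rows) in each of 12 comparisons (columns, first group minus second), and black dots mark calls. Grey marks Ctsf where it was not tested. The columns of SMP minus cMoP and SatM minus SMP hold the most dots, 24 and 22, and that of lung macrophages minus SatM holds none.

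Other Ly6C-negative cells, MDP and GMP entered no comparison. Other Ly6C-negative cells of spleen and blood had 14.24 and 14.34 for Ctss, 11.73 and 12.12 for Cd68 and 8.74 and 7.42 for Lgmn. MDP had 12.62 for Ctss, 9.05 for Cd68 and 6.28 for Lgmn. GMP had 10.93, 8.22 and 2.32 for the same genes in that order. On these genes the other Ly6C-negative arrays were within or near the range of the panel SatM arrays, and GMP was below MDP.

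Other genes of the same pathway, outside the list of 34, were counted in the same way; in SMP against cMoP their shares are to be read against the 12.8% higher and 22.7% lower of all genes. The list of other hydrolases had 22 genes tested and also holds Sumf1, which is not itself a hydrolase. Of these 22, SMP had 4 called higher and 2 lower than cMoP, with a median of -0.21, against -0.09 over all genes. Pld3, a lysosomal nuclease, was higher in SMP (5.11, adjusted p = 4.82e-09) and Sumf1, which activates sulfatases, lower (-2.62, adjusted p = 3.34e-06). Of 19 other lysosomal membrane proteins tested, 1 was higher and 6 were lower in SMP, among them Laptm4b (-5.39) and the chloride-proton exchanger Clcn7 (-2.40). Of 14 other proton pump subunits tested, the a1 subunit Atp6v0a1 was higher (4.47) and Atp6v1h lower (-1.27) in SMP. Of 11 genes that sort enzymes to lysosomes, 5 were lower and 1 higher in SMP, including Sort1 (sortilin, -3.41) and Gnptab (which makes the mannose 6-phosphate tag, -3.32).

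M2-like macrophages had 7 of the 22 genes on the list of other hydrolases called higher than SatM and none lower. The median was 1.29, against 0.03 over all genes, of which 5.39% were called higher and 2.92% lower. Among the 7 were Pld3 (5.75, adjusted p = 0.000229), the phospholipase Pla2g15 (3.96) and Naglu (2.98). Of the 22, SatM had 0 called higher than Msr1-negative Ceacam1-negative cells by limma and 2 called lower, Arsb (-3.92) and Pld3 (-1.91), beside 4.94% and 5.28% of all genes. The metal ion transporter Slc11a1 was higher in SatM than in those cells (8.24, adjusted p = 0.00252). In SatM against inflammatory monocytes, 1 of the 22 was called higher and 3 lower, beside 2.87% and 6.47% of all genes. The osteoclast-type acid phosphatase Acp5 was higher (3.99, adjusted p = 0.00227), and Pld3 (-2.43), Ggh (-1.82) and Galns (-1.73) were lower.

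Of the 12 MiT/TFE factor and Ragulator genes, Tfec and Mitf were called lower in SMP than in cMoP and none higher, a smaller share than the 35.5% of all genes called. Tfec had 2.49, 2.36, 2.44 and 2.36 in SMP, against 8.84, 9.22, 8.50 and 9.84 in cMoP (log2 difference -6.69, adjusted p = 6.51e-09). Mitf had 5.25, 2.30, 2.45 and 3.36 in SMP, against 9.72, 9.83, 9.22 and 8.78 in cMoP (-6.05, adjusted p = 2.50e-06). For both genes every SMP array was below every cMoP array. Tfec was also lower in SatM, at 2.30 and 2.51, than in inflammatory monocytes, at 6.61 and 6.65 (-4.23, adjusted p = 5.49e-05). Of 6 inhibitors of cathepsins and related proteases tested, 3 were called higher in SMP than in cMoP (Serpinb1a 1.68, Cst7 1.09 and Serpinb6a 1.06) and 2 lower (Cst3, cystatin C, -1.97 and Cstb -1.54). In SatM against SMP, 2 were higher (Serpinb6a 3.11 and Cst3 2.87) and 2 lower (Cst7 -8.00 and Serpinb1a -5.10). The shares over every gene tested for that step were 12.8% higher and 14% lower.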

How the data were processed

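The authors deposited 1 log2 value for each probe set and array; any normalisation is not given in the sources used here, and the base of 2 was inferred from a range of 2.30 to 16.02. Of 45101 probe sets, 34945 had 1 symbol and 34741 matched the reference gene table (GRCm38.p6), giving 18193 genes. Values at the floor of 2.30 (within 0.005) have no order. A difference of means from a group at the floor is a lower bound. Arrays have no sequencing depth, and their number limits the precision.

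Models were fitted with limma 3.58.1 (lmFit, eBayes with trend) in R 4.3.3. The first held 20 arrays, with terms for cell type and WT-titled arrays (12077 genes, 10 residual degrees of freedom). The second held the 15 panel arrays, with terms for cell type and tissue (11734 genes, 6 residual degrees of freedom). Genes needed 2 arrays over the array median. P-values were adjusted by Benjamini-Hochberg over all genes tested. The fit was tested on simulated data. Python 3.11.15, pandas 2.3.3 and matplotlib 3.10.9 made summaries and figures.

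Members and lists were chosen with earlier results of these data known. Values per array are given for called genes whose groups did not overlap, at most 10 per comparison, largest differences first, and others were chosen after their values were seen. From the added lists at most 4 called genes are named per list. The tests of the step difference, of the set difference and of the tissue term were added after seeing the data.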

Additional observations from a re-analysis of the deposited data

Results flagged for a closer look

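In 98 gene and group combinations with 4 arrays, 13 had 1 array far from the other 3 by Dixon's test. The rate of about 1 in 20 by chance holds for 4 like replicates. These groups instead joined numbered and WT-titled arrays, or SatM arrays of 4 tissues, so the 13 cannot be set against that rate. Among SMP arrays, Ctsl had 2.98 on SMP 2 against 5.87 to 6.25 on the others, and Atp6v1a had 9.12 on SMP 1 against 7.72 to 7.86. Also near the floor were Ctsf at 2.43 on SMP 2 and Lgmn at 2.51 on the first WT-titled array. The first WT-titled cMoP array was low for 5 genes, with Ctsd at 7.70 against 9.02 to 9.12, Psap at 12.81 against 13.40 to 13.49, Npc2 at 12.14 against 12.81 to 12.86, Atp6v0d1 at 8.49 against 9.21 to 9.25 and Atp6v1a at 9.03 against 10.24 to 10.38. Among the panel SatM arrays, that of lung was high for Ctsc at 12.83 against 10.67 to 10.80, for Ctsh at 12.67 against 10.93 to 11.05 and for Ctsk at 7.54 against 2.30 to 3.19, and that of bone marrow was high for Ctse at 6.83 against 2.67 to 3.36.

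The difference between SMP and cMoP was larger for Ctss in the WT-titled set (-3.61, adjusted p = 0.0313). The change of SatM against SMP differed from that of inflammatory monocytes against cMoP for 19 genes by a test of the difference itself in limma. It was more positive in the SatM step for Ctss (6.72), Ctsh (6.64), Cd68 (6.10), Lgmn (4.0), Scarb2 (3.84), Psap (3.81), Ctsb (3.11), Ctsz (3.02), Ctsk (2.45), Hexa (2.22), Asah1 (1.79), Lamp1 (1.77) and Ctsa (1.63). It was more negative for Ctse (-4.25), Gla (-3.60), Glb1 (-3.28), Ctsd (-2.08), Man2b1 (-1.65) and Npc2 (-1.17). These values are not separate from the SMP against cMoP differences, which enter the same contrast.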

How the results depend on the processing

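Over all called genes and alternatives, 1638 of 1930 values kept the direction and the call, 292 kept the direction without the call, and 0 changed direction. The number of lysosomal genes called moved by over 1.5 times in these cases. SatM against inflammatory monocytes had 8 calls, 5 with the compared groups alone, 4 with the panel's marrow SatM array added, and 3 to 4 without 1 array. Inflammatory monocytes against cMoP had 3, 5 with the mean of probe sets, 5 without the term for WT-titled arrays, and 3 to 6 without 1 array. M2-like macrophages against SatM had 8, 5 with the mean of probe sets, 0 with the compared groups alone, 2 without the tissue term, and 3 to 8 without 1 array. SatM against Msr1-negative Ceacam1-negative cells had 16, 7 with no filter, 0 with the compared groups alone, and 5 to 19 without 1 array. Msr1-dull Ceacam1-dull cells against SatM had 1, 0 with no filter, 0 with the compared groups alone, 0 without the tissue term, and 0 to 10 without 1 array. Lung macrophages against SatM had 0, 1 without the tissue term and 0 to 4 without 1 array. Basophils against neutrophils had 14 and 9 to 11 without 1 array, and eosinophils against basophils 7 and 2 to 5. Calls over all genes moved too without 1 array. They were 538 to 892 for SatM against inflammatory monocytes (1128 with every array) and 1003 to 1833 for inflammatory monocytes against cMoP (1795). M2-like macrophages against SatM had 351 to 1312 (975), and SatM against Msr1-negative Ceacam1-negative cells 447 to 1440 (1200). Basophils against neutrophils had 3434 to 4024 (4519) and eosinophils against basophils 1529 to 2162 (2493). The cause was not tested. For lysosomal genes the ranges without 1 array elsewhere were 22 to 23 for SMP against cMoP and 19 to 22 for SatM against SMP. They were 18 to 21 for monocytes against granulocytes and 11 to 13 for eosinophils against neutrophils. Same-numbered arrays of compared groups had deviations that correlated at -0.05 to 0.23, over 0.1 for the WT-titled SMP and cMoP arrays (0.23), eosinophils and basophils (0.16) and eosinophils and neutrophils (0.12); each rests on 2 pairs, and the labels give no shared source. With the number in the titles as a replicate block, SatM against inflammatory monocytes had 7 calls, SMP against cMoP 24, inflammatory monocytes against cMoP 3, SatM against SMP 21, eosinophils against neutrophils 16, basophils against neutrophils 14 and eosinophils against basophils 7. Lung macrophages could not be fitted against SatM alone with a tissue term. Within the numbered arrays alone 22 genes and within the WT-titled arrays alone 20 were called for SMP against cMoP.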
